A study of Mus musculus with 12 samples.

Results

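The siRNA by LPS interaction asks whether the response to LPS had a different size in cells given an siRNA against lincRNA-Tnfaip3 than in cells given a control siRNA. It is the LPS change with the lincRNA siRNA minus the LPS change with the control siRNA, on a log2 scale. A value below 0 means a smaller rise or a larger fall with the lincRNA siRNA. All 12 of the 12 arrays of the series enter it. They measured RAW264.7 cells, a mouse macrophage line, in 4 groups of 3 arrays: CtrlsiRNA (a scrambled siRNA, no LPS), CtrlsiRNA + LPS, LincTnfaip3siRNA (no LPS) and LincTnfaip3siRNA + LPS. Every group carried an siRNA for 24 h before a further 4 h of culture, in which the LPS groups received E. coli LPS at 1 µg/ml. There was no group without siRNA, and all cells came from 1 line. Whether arrays of a group came from separate cultures is not in the labels, and p-values then reflect only how far these samples spread, which can be technical error. No probe carried the name lincRNA-Tnfaip3, so the loss of the target was not measured.

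LPS is a component of the outer membrane of Gram-negative bacteria that macrophages sense through TLR4. The adaptor MyD88 leads from TLR4 to NF-kB and the inflammatory cytokines, while the adaptor TRIF leads to IRF3 and interferon beta. Secreted interferon then acts back on the cells through its receptor and a complex of transcription factors that holds IRF9, which binds the interferon-stimulated response element in front of antiviral genes, so these genes answer LPS as a later wave. A20, the product of Tnfaip3, is a ubiquitin-editing enzyme that dampens NF-kB.

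The members were 23822 features: 15097 gene symbols, 3535 long intergenic noncoding RNA (lincRNA) regions and 5190 other transcripts. The 8 macrophage markers, among them Csf1r, Adgre1 and Spi1, were well above background on all 12 arrays. Of 24 markers of other cell types 7 were above background on all arrays, among them Kdr and Cd3e, and 7 on none, among them Alb, Epcam and Pdgfra. Control-siRNA arrays 1 and 2, which shared slide 1, had 27198 and 29452 probes above background, and the others 32702 to 36391. Slide 3 held only arrays 2 and 3 of LincTnfaip3siRNA + LPS, and slide 2 held the other 8 arrays, which covered all 4 groups. An interaction with the slide as a block therefore equals that of slide 2, and it is given where it moves a value. It rests on array 3 alone for CtrlsiRNA and on array 1 alone for LincTnfaip3siRNA + LPS. It also keeps LincTnfaip3siRNA arrays 2 and 3, so it is no independent estimate. Arrays 2 and 3 of LincTnfaip3siRNA stood apart from array 1 of the same group, although all 3 lay on slide 2. For many lists and genes the interaction without them is given beside the 12-array value. Values printed alone can rest on them too.

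Promoters of the gene groups described here differed in the interferon-response letters that they hold. The letters searched were GAAA, 2 bases of any kind and GAAA, the core of the interferon-stimulated response element, and GGGA, 2 bases of any kind and TTCC, a form of the kB site, on both strands of the 250 bases before each gene's start in RefSeq (GRCm38.p6). The first was in 2.98% of 32851 windows, in 9 of 10 windows of guanylate-binding protein and immunity-related GTPase genes (90.0%), in 15 of 39 windows of antiviral genes (38.5%) and in 0 of 32 windows of NF-kB genes. It was also in 3 of 16 windows of ribosomal protein genes (18.8%) and in 11.1% each of chemokine, JAK-STAT and housekeeping windows. The remaining lists had at most 6.67%. The second was in 1.21% of all windows and in 4 of the 32 NF-kB windows (12.5%), a share that the antiviral genes (5 of 39, 12.8%) and the GTPase genes (1 of 10, 10.0%) also had and that cytokines (18.8%), chemokines and housekeeping genes (22.2% each) exceeded. The motifs can overlap, which happened in 1 window. Windows were found for 9 of the 13 GTPase genes, 32 of the 42 antiviral genes and 23 of the 30 NF-kB genes measured. Below are promoters of Gbp2 and Ifi44, which had the lowest interaction of their lists, of Ifit1, chosen after the values were seen for its pair of matches, and of the NF-kB inhibitor gene Nfkbia, with the matching letters in capitals. The Gbp2 match begins 59 bases before the gene start, those of Ifit1 104 and 85 bases before it and that of Nfkbia 29 bases before it, while the Ifi44 window holds neither motif. They lie at chr3:142620413-142620662 (plus strand), chr3:151749911-151750160 (minus), chr19:34640639-34640888 (plus) and chr12:55492648-55492897 (minus).
Gbp2: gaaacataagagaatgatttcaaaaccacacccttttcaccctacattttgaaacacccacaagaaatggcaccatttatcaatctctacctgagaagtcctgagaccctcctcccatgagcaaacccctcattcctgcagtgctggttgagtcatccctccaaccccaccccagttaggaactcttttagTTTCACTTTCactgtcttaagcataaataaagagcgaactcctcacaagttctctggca
Ifi44: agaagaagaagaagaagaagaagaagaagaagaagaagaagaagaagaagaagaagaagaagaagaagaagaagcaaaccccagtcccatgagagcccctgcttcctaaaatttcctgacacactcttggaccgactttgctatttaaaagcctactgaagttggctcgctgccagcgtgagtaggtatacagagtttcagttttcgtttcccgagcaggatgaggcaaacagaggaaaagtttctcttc
Ifit1: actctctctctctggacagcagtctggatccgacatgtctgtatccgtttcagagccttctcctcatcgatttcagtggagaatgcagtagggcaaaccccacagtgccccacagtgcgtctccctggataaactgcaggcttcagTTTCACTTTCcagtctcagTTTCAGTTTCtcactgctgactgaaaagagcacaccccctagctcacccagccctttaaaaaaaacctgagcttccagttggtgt
Nfkbia: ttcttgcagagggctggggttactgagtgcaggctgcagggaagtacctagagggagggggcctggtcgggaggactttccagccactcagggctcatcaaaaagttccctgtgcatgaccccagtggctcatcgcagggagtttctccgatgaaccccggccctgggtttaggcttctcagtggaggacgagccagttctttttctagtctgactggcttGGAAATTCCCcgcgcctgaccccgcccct

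Across the whole array no feature passed the test of the interaction. At an adjusted p of 0.05 (limma, Benjamini-Hochberg over all features) 0 of 23822 features (0%) were called, and the lowest adjusted p was 0.894. At an unadjusted p under 0.05 there were 881 features (3.70%, where 5% would be 1191), of which 600 (2.52%) were below 0 and 281 (1.18%) above. The median standard error was 0.267 and the median half-width of the unadjusted 95% confidence interval 0.596. A typical LPS change could differ between the siRNAs by about that much in either direction without an unadjusted p under 0.05. Larger differences did not pass after adjustment either, such as the -1.96 of Hook1. Over all features 54.9% were below 0, with a median of -0.04. That share was 38.8% with the slide as a block and 36.6% when arrays were scaled to their median, which moved the median of all features to 0.12. The directions below are given beside these backgrounds.

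Antiviral interferon-stimulated genes had interactions below 0. Of 44 listed genes 42 were measured, and all 42 had an interaction below 0, with a median of -0.86 and a range from -2.89 (Ifi44) to -0.01 (Oas1b, of the oligoadenylate synthetase family). With groups not above background held at a detection bound, the lowest signal well above background, 40 of the 42 were below 0, and Mx1 and Ifi209 lost their direction. None passed, and 4 reached an unadjusted p under 0.05. With control siRNA 38 of the 42 rose with LPS (3.21% of all features rose), with a median change of 3.58, and with the lincRNA siRNA 20 rose (1.5% of all features), with a median of 2.38. The difference in those counts is not a test, and the interaction that tests it gave 0 calls. With the slide as a block the median was -0.89, with 40 below 0.

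Guanylate-binding proteins and immunity-related GTPases, interferon-induced proteins that attack vacuoles holding pathogens, had the same direction. Of 16 listed 13 were measured, and all 13 were below 0, with a median of -0.91 and a range from -1.77 (Gbp2) to -0.19 (Gbp6). Under each siRNA 10 rose with LPS, where 3.21% of all features rose with control siRNA and 1.5% with the lincRNA siRNA. The median LPS change of the list was 3.95 with control siRNA and 2.94 with the lincRNA siRNA. The slide-blocked median was -0.90, with 11 below 0. Over both lists together 79 of 81 kept probes were below 0, and the 46 genes well above background on all 12 arrays had a median of -0.85.

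**Figure D1:**
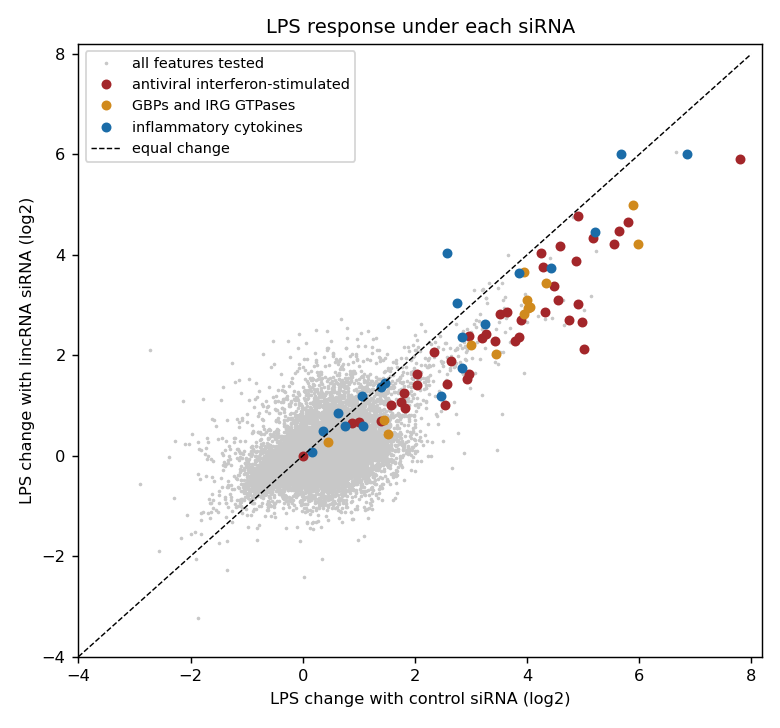
The LPS change with control siRNA (horizontal, log2) is set against that with the lincRNA siRNA (vertical, log2) for the 23822 features in grey, with 3 lists in colour and the line of equal change dashed. The 55 interferon-stimulated genes of both lists lie below the line as plotted (53 with dim groups held at their detection bound, without Mx1 and Ifi209), while the cytokines lie on both sides of it.

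The siRNA groups differed in these genes mainly in the unstimulated cells. With LPS, the median difference between the siRNAs was 0.02 for the antiviral genes and -0.31 for the GTPases. Without LPS, it was 0.90 and 0.77, higher with the lincRNA siRNA. Within the unstimulated lincRNA-siRNA group, the antiviral list stood at -0.33 on array 1, 1.40 on array 2 and 1.47 on array 3, as the median over genes of the level minus the control-siRNA mean. On the control-siRNA arrays the same measure was -0.14, 0.24 and -0.12, on the CtrlsiRNA + LPS arrays 3.38, 3.55 and 3.84, and on the LincTnfaip3siRNA + LPS arrays 3.79, 3.71 and 3.36. Array 1 thus lay slightly below all 3 control arrays, and arrays 2 and 3 lay between the control and the LPS levels.

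**Figure D2:**
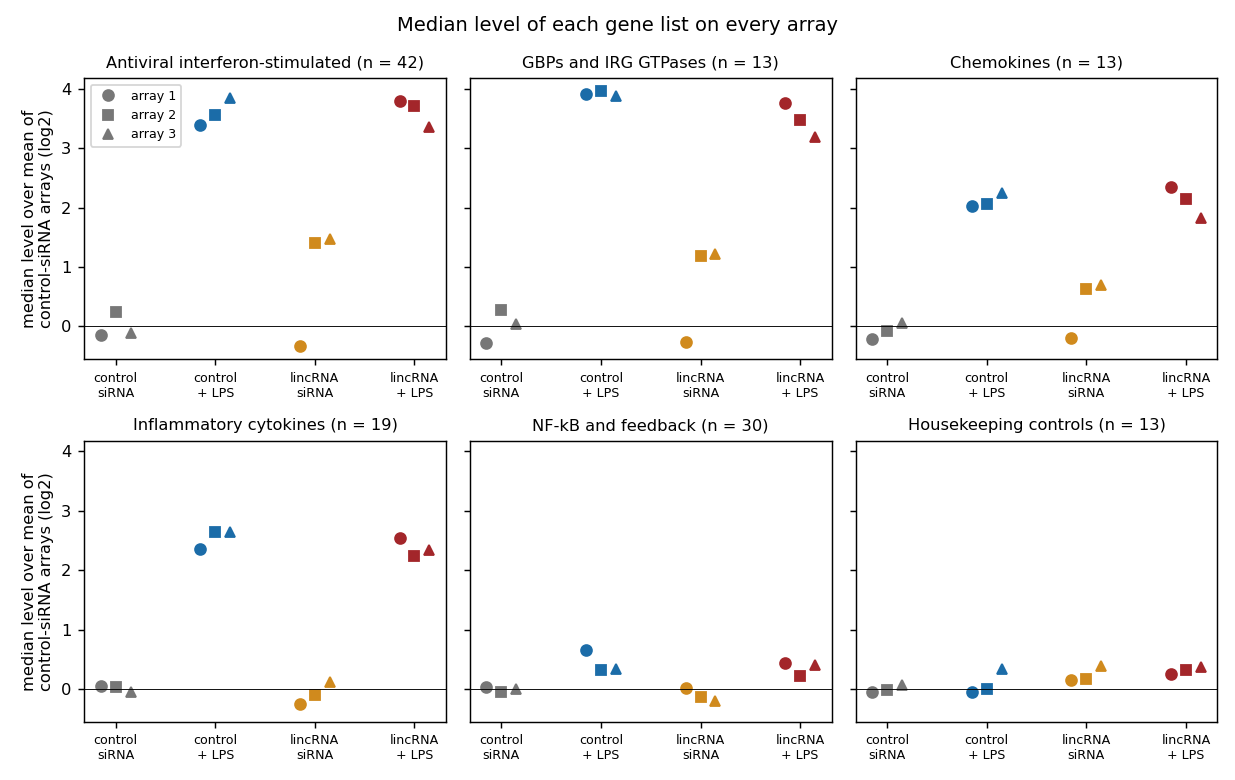
Each point is 1 array, and the vertical axis is the median over a list's genes of the log2 level minus the mean of the control-siRNA arrays; the panels hold 6 lists and the horizontal axis the 4 groups. In the panel of antiviral genes LincTnfaip3siRNA array 1 is at -0.33 and arrays 2 and 3 at 1.40 and 1.47, while in the cytokine panel the same arrays are at -0.25, -0.09 and 0.12.

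Counted gene by gene, 0 of the 42 antiviral genes were above all 3 control-siRNA arrays on LincTnfaip3siRNA array 1, 38 (90.5%) on array 2 and 39 (92.9%) on array 3. Over all features these shares were 34.0%, 34.8% and 36.9%. Below all 3 control-siRNA arrays were 25 of the 42 (59.5%) on array 1 and 0 on arrays 2 and 3, where all features had 26.0%, 25.4% and 30.0%. Because array 1 stayed low, 0 of the 42 genes separated the unstimulated siRNA groups without overlap, against 12.1% of all features in that direction. Without arrays 2 and 3 together the median interaction of the antiviral list was 0.32, that of the GTPases -0.23, and 15 of the 55 genes of both lists were below 0. Without array 1 it was -1.46 over the 55 genes. The direction of the antiviral result therefore rests on 2 of the 3 unstimulated lincRNA-siRNA arrays.

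The same step appeared in single genes. Ifi44, an interferon-induced protein gene, had levels (log2, over the 75th percentile of the array) of -3.00, -2.23 and -2.86 on the control-siRNA arrays and of 1.24, 2.96 and 2.77 with LPS. With the lincRNA siRNA it was at -2.62, 2.18 and 2.14 without LPS and at 2.95, 2.49 and 2.66 with LPS. On arrays 2 and 3 unstimulated cells thus had about the level of stimulated ones, and the interaction was -2.89 with a 95% confidence interval from -6.34 to 0.57, and 0.30 without arrays 2 and 3. Irf7, the transcription factor that amplifies interferon production, was at -0.77, -0.26 and -0.60 on the control-siRNA arrays and at -0.89, 2.36 and 2.39 with the lincRNA siRNA alone. Its levels with LPS were 2.11, 2.61 and 2.85 with control siRNA and 2.70, 3.10 and 3.02 with the lincRNA siRNA, so those ranges overlapped. The Irf7 interaction was -1.42 (95% confidence interval -3.71 to 0.87), and 0.76 without arrays 2 and 3.

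Gbp2, whose probe was dim on 1 control-siRNA array, was at -6.26, -3.74 and -4.24 with control siRNA and at -4.36, -3.26 and -2.98 with the lincRNA siRNA, and with LPS at 1.21, 1.40 and 1.12 against 1.05, 0.53 and 0.46. All 3 lincRNA-siRNA arrays with LPS were below all 3 control arrays with LPS, a separation that 4.05% of all features showed. The interaction was -1.77 (95% confidence interval -3.61 to 0.06), -0.95 without LincTnfaip3siRNA arrays 2 and 3, and -0.90 when slides were blocked. Mx1, an antiviral GTPase, was not well above background on any control-siRNA array and rose at least 46.1-fold there with LPS; its interaction was -1.89, but 0.38 with that group held at the lowest signal well above background, so no direction can be given. Such a bound sets, per array, the higher of the probe's signal and that lowest signal against the mean of the bright group.

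**Figure D3:**
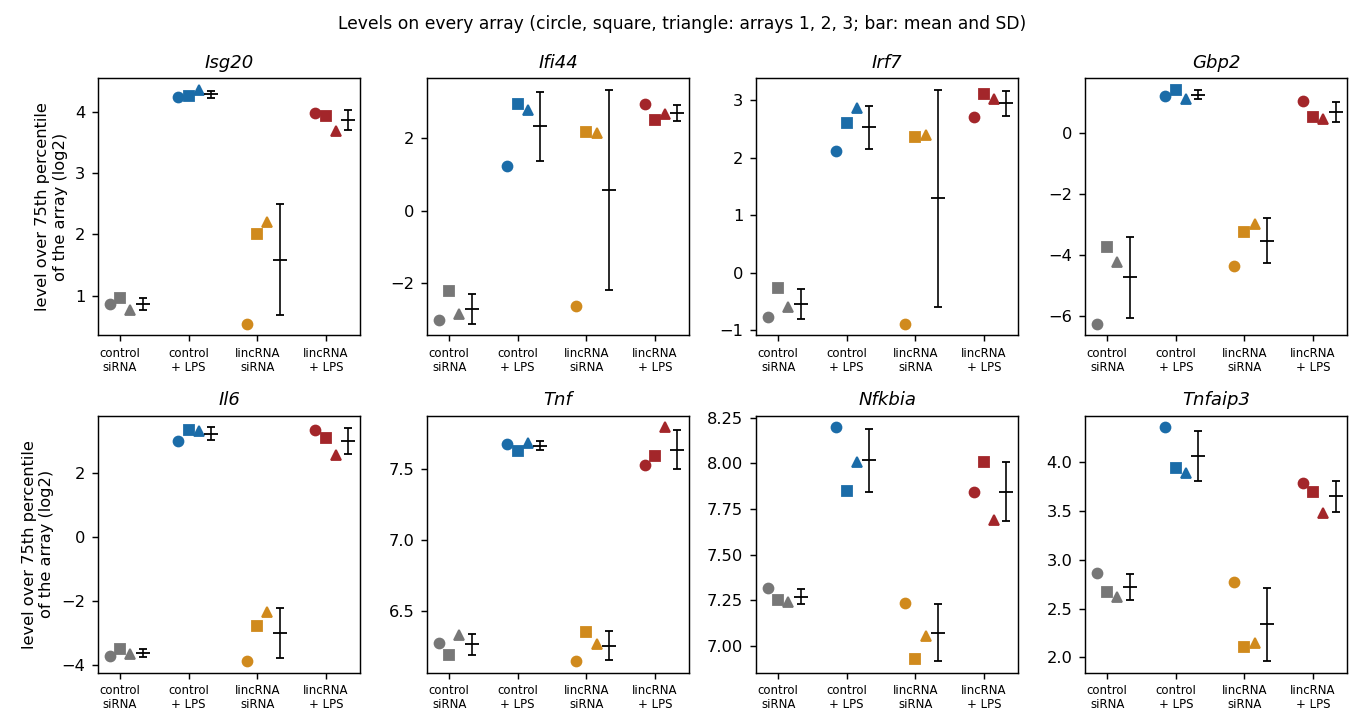
Log2 levels over the 75th percentile of the array are shown for 8 genes on all 12 arrays, with the mean and SD of each group of 3 beside the points. Ifi44 and Irf7 have wide unstimulated lincRNA-siRNA groups, split between array 1 and arrays 2 and 3, while Tnf and Nfkbia have narrow ones.

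When LincTnfaip3siRNA array 1 was left out, 3 features passed, and these genes were chosen after their values were seen. They were Dhx58, an RNA helicase that regulates RIG-I-like sensing (-1.85, adjusted p = 0.0123), Isg20, an interferon-induced exonuclease (-1.67, adjusted p = 0.0386), and Gm9706 (-2.73, adjusted p = 0.0386), all by limma. Over all 12 arrays Dhx58 had -1.18 and Gm9706 -1.95, and neither passed. Dhx58 was at -0.10, 0.03 and -0.18 with control siRNA and at -0.24, 1.75 and 1.77 with the lincRNA siRNA. In all 3 genes the array left out was the lincRNA-siRNA array near the control-siRNA levels. Isg20 was at 0.86, 0.96 and 0.77 with control siRNA and at 0.54, 2.01 and 2.20 with the lincRNA siRNA. With LPS it was at 4.24, 4.26 and 4.36 and at 3.97, 3.94 and 3.68. Every lincRNA-siRNA array with LPS was thus below every control array with LPS (4.05% of all features showed this). Over all 12 arrays the Isg20 interaction was -1.14 (unadjusted 95% confidence interval -2.25 to -0.04), and Isg20 did not pass either.

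Upstream of these genes, the signalling members as a list had a median near 0. Over 23 JAK-STAT and IRF genes the median interaction was -0.07, with 16 below 0, and the ends of the list were Irf7 and the kinase gene Tyk2 at 0.66. Among 19 genes of double-stranded RNA sensing and RNA interference the median was -0.14, with 11 below 0, and the lowest was Ddx58, the RNA sensor RIG-I, at -1.37 (levels without LPS 0.83, 1.57 and 0.96 with control siRNA, 0.72, 3.38 and 3.70 with the lincRNA siRNA), which was 0.51 without arrays 2 and 3. The highest was the Argonaute gene Ago4 at 0.35.

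Inflammatory cytokines had interactions on both sides of 0. Of 19 measured genes 13 were below 0, with a median of -0.16, which was 0.09 without LincTnfaip3siRNA arrays 2 and 3. With LPS 16 rose under control siRNA (3.21% of all features rose) and 13 under the lincRNA siRNA (1.5% of all features). The difference in those counts is not a test. Tnf, the early cytokine of the NF-kB response, was at 6.28, 6.19 and 6.34 with control siRNA, 7.68, 7.63 and 7.68 with LPS, 6.15, 6.36 and 6.27 with the lincRNA siRNA and 7.53, 7.59 and 7.79 with both. Its groups overlapped between the siRNAs in each LPS state, and the interaction was -0.02 with a narrow 95% confidence interval from -0.34 to 0.30. Tnf rose by 1.39 and by 1.37 with LPS, so a difference in its LPS change beyond 0.34 on the log2 scale lay outside the interval.

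Il6, a cytokine of the acute phase, was at -3.71, -3.48 and -3.66 with control siRNA and at 3.00, 3.36 and 3.33 with LPS. With the lincRNA siRNA it was at -3.87, -2.79 and -2.35, again highest on arrays 2 and 3, and at 3.35, 3.11 and 2.58 with LPS. The Il6 interaction was -0.83 (95% confidence interval -1.92 to 0.25), and 0.036 without those arrays. Il1b, the inflammasome substrate, did not show the step: it was at 1.76, 1.61 and 1.62 with control siRNA and at 1.58, 1.57 and 1.58 with the lincRNA siRNA. With LPS it was at 4.86, 4.29 and 4.37 against 4.22, 3.90 and 3.72, so here all 3 lincRNA-siRNA arrays with LPS were the lower ones (4.05% of all features showed this). Its interaction was -0.47 (95% confidence interval -0.999 to 0.05), and -0.24 on slide 2.

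The ends of the cytokine list were Lif and Il1rn. Lif, an interleukin-6 family cytokine, was at -3.01, -4.30 and -4.42 with control siRNA and at -4.61, -5.05 and -6.04 with the lincRNA siRNA, while all LPS levels lay between -1.55 and -1.12. Its interaction was 1.46 (95% confidence interval 0.16 to 2.76, unadjusted p = 0.0316, adjusted p = 0.894), the opposite direction to the interferon genes, and 0.79 with the slide as a block. Il1rn, the interleukin-1 receptor antagonist gene, had -1.28 (slide block -0.52) and was well above background on 1 control-siRNA array. Il33, an alarmin gene, was not above background in either unstimulated group. It rose at least 10.73-fold with control siRNA and at least 17.2-fold with the lincRNA siRNA, and with both groups at that bound no exact interaction was measured. Csf2, the granulocyte-macrophage growth factor gene, had -0.76, and 0.32 without LincTnfaip3siRNA arrays 2 and 3.

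Among 13 chemokines 11 were below 0, with a median of -0.43. This median was -0.07 with the slide as a block and 0.02 without LincTnfaip3siRNA arrays 2 and 3. Cxcl10, an interferon-induced T cell attractant, was at 2.96, 3.34 and 3.23 with control siRNA, 2.61, 3.48 and 3.57 with the lincRNA siRNA and 7.77 to 8.27 on the 6 LPS arrays. It rose by 4.81 and 4.75 and had an interaction of -0.06, while another probe of the gene gave 1.15. Ccl2, the monocyte attractant, was at 2.48, 2.75 and 2.54 with control siRNA and at 1.68, 3.92 and 3.81 with the lincRNA siRNA. Its LPS levels were 4.59, 6.23 and 6.12 and then 5.93, 5.71 and 5.62, so array 1 was well below the other two in the CtrlsiRNA + LPS and LincTnfaip3siRNA groups, and the interaction was -0.44, or 1.01 without LincTnfaip3siRNA arrays 2 and 3. Ccl12, a related monocyte attractant, had the lowest value, -1.54 (limma, unadjusted p = 0.0172), which was -0.42 with the slide as a block. Cxcl16 had the highest, 0.22. Without LincTnfaip3siRNA arrays 2 and 3 Ccl12 was at -1.41 and Cxcl16 at -0.41.

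**Figure D4:**
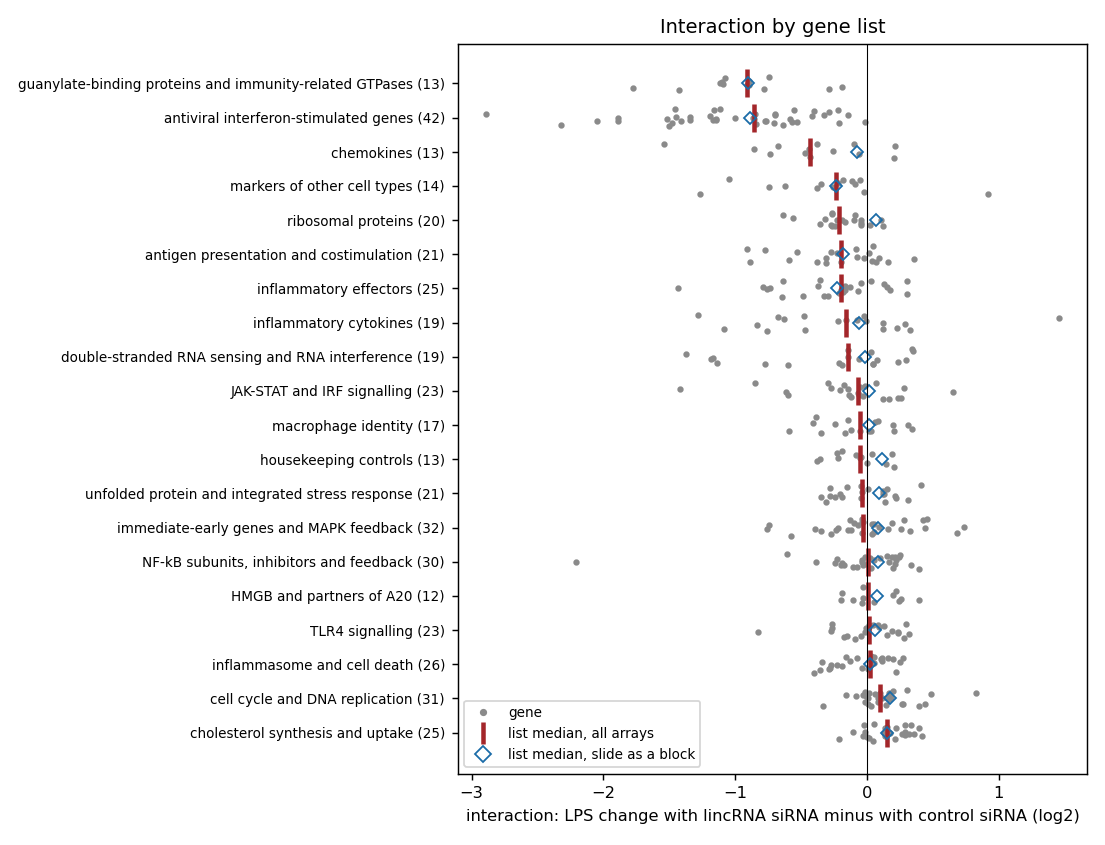
Each grey point is the interaction (log2) of 1 gene, red bars mark the list median over all 12 arrays and blue diamonds the median with the slide as a block; numbers in parentheses are genes measured. Both interferon-stimulated lists have medians near -0.9 under either estimate, while the chemokine median moves from -0.43 to -0.07 and most others are near 0. Both estimates keep LincTnfaip3siRNA arrays 2 and 3, without which the antiviral median was 0.32 and the GTPase median -0.23 (not plotted).

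NF-kB subunits, inhibitors and feedback genes had values spread evenly about 0: 15 of 30 were below 0, and the median was 0.01. Nfkbia, the inhibitor that NF-kB itself induces, was at 7.32, 7.25 and 7.24 with control siRNA, 8.196, 7.85 and 8.004 with LPS, 7.24, 6.93 and 7.05 with the lincRNA siRNA and 7.84, 8.01 and 7.69 with both. It rose by 0.75 and by 0.77, and the interaction was 0.02 (95% confidence interval -0.38 to 0.43). Tnfaip3 was at 2.87, 2.67 and 2.62 with control siRNA and at 4.35, 3.94 and 3.89 with LPS. With the lincRNA siRNA it was at 2.77, 2.10 and 2.14 and at 3.79, 3.69 and 3.48, lower on arrays 2 and 3 than on array 1 without LPS. Its LPS changes of 1.34 and 1.31 gave an interaction of -0.03 (95% confidence interval -0.66 to 0.59), which was -0.46 without arrays 2 and 3. Nfkb1, the p105 and p50 precursor gene, had -0.19 and another probe -0.28.

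Rel, which encodes the c-Rel subunit, was the exception in that list, with -2.21 (95% confidence interval -3.72 to -0.70, unadjusted p = 0.00872, adjusted p = 0.894). It was at -6.40 and -5.70 on control-siRNA arrays 1 and 2 and at -4.19 on array 3, and between -3.69 and -2.62 on the 9 other arrays. Its low values were thus on slide 1, where the probe was dim, and the slide-blocked interaction was -0.34. At the other end was Tax1bp1, an A20 adaptor gene, with 0.39. The 23 TLR4 signalling genes had a median of 0.01, with Ticam2, the bridging adaptor gene of TRIF, lowest at -0.82 (above background on 1 control-siRNA array) and Traf6 highest at 0.32. Among 12 HMGB genes and partners of A20 the median was 0.01 and the values ran from -0.20 (Tnip1) to 0.39. Hmgb1, the nuclear protein released as an alarmin, had 0.26 (95% confidence interval -0.40 to 0.92), and 0.74 without LincTnfaip3siRNA arrays 2 and 3. Its 6 other probes gave 0.02 to 0.35 over all arrays.

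Inflammatory effectors had a median close to that of the cytokines (-0.16). Of 25 genes 19 were below 0, with a median of -0.19. Nos2, the inducible nitric oxide synthase gene, was at 3.37, 3.34 and 3.45 with control siRNA and at 3.58, 4.46 and 4.26 with the lincRNA siRNA, where arrays 2 and 3 were again the higher ones. Its interaction was -0.64 (95% confidence interval -1.42 to 0.14), and -0.12 without them. Ptgs2, the inducible cyclooxygenase gene, had -0.33, and the complement factor gene Cfb had -1.43 (-3.29, -2.88 and -3.88 with control siRNA against -3.94, -1.50 and -1.75 with the lincRNA siRNA, and 0.11 without arrays 2 and 3). Icam1 had the highest value, 0.31, and -0.08 without those arrays. Among 21 antigen presentation genes 14 were below 0 with a median of -0.19, from Ciita at -0.91 to Pdcd1lg2 at 0.36. Without arrays 2 and 3 Ciita was at -1.87 and Pdcd1lg2 at -0.61. The 26 inflammasome and cell death genes had a median of 0.02, from Casp4 at -0.40 to Nlrc4 at 0.27, and the 32 immediate-early and MAPK feedback genes one of -0.03, from Egr3 at -0.76 (not above background in either unstimulated group) to Fosb at 0.74.

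Genes that LPS lowered showed the mirror image of the step in the unstimulated lincRNA-siRNA cells. LPS-induced and LPS-repressed features were those with a mean LPS change across the siRNAs of 2-fold or more that passed the test, so their LPS direction is no finding. The mean LPS change and the interaction are made from the same 12 arrays: a higher level on an array of LincTnfaip3siRNA lowers both. A lower level on an array of CtrlsiRNA raises the mean change and lowers the interaction. The selection can thus shape the shares below 0 that follow, which are a description only. Of the repressed features 26 of 34 fell with control siRNA (1.88% of all features fell) and 13 with the lincRNA siRNA (0.327% of all features). Of 472 LPS-induced features 393 (83.3%) had an interaction below 0, with a median of -0.48. Of 34 LPS-repressed features 28 were above 0 and 6 (17.6%) below, with a median of 0.38. Over all features 54.9% were below 0. On LincTnfaip3siRNA arrays 1, 2 and 3 the induced features stood at a median of -0.06, 0.58 and 0.69 over the control mean, and the repressed ones at -0.08, -0.78 and -1.02. Outside the interferon lists 423 induced features remained, with a median interaction of -0.43 and levels of -0.03, 0.48 and 0.56. Without arrays 2 and 3 together the medians were -0.027 for the induced and -0.20 for the repressed features. With the slide as a block the induced median was -0.29.

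Single repressed genes showed the split between arrays too. Usp2, a deubiquitinase gene, was at 1.39, 1.34 and 1.62 with control siRNA, at 0.44, -0.71 and -0.85 with LPS, at 1.79, 0.43 and 0.42 with the lincRNA siRNA and at -0.27, -0.55 and -0.39 with both. Its array 1 was the highest in the CtrlsiRNA + LPS group too. Lrrc17, a leucine-rich repeat gene, was at -1.50, -1.53 and -1.30 with control siRNA and at -1.22, -2.73 and -2.66 with the lincRNA siRNA. Their interactions were 0.54 and 0.53, and neither interval excluded 0 (-0.74 to 1.82 and -0.61 to 1.67). Without arrays 2 and 3 they were -0.37 and -0.45. Gpr183, an oxysterol receptor gene, had 0.25, Myadml2 0.67, C130050O18Rik 0.42 and Srpk3, which was not above background with both agents, -0.92. Without arrays 2 and 3 these values were -0.36, -0.47, 0.19 and 0.23.

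Growth and metabolic lists lay near 0. Of 31 cell cycle and DNA replication genes 24 were above 0, with a median of 0.10, from Cdc6 at -0.33 to the mitotic kinase gene Aurkb at 0.83. Of 25 genes of cholesterol synthesis and uptake 19 were above 0, with a median of 0.15, with Lss, the lanosterol synthase gene, highest at 0.42. Lss was at 2.46, 2.35 and 2.35 with control siRNA, 2.05, 1.90 and 1.85 with LPS, 2.30, 2.21 and 2.12 with the lincRNA siRNA and 2.05, 2.09 and 2.39 with both (unadjusted p = 0.0268, adjusted p = 0.894). The 21 unfolded protein response genes had a median of -0.04, from Trib3 at -0.35 to Atf6 at 0.41, and on LincTnfaip3siRNA arrays 1, 2 and 3 they stood at -0.08, 0.37 and 0.31, with a median interaction of 0.14 without arrays 2 and 3. The cholesterol median was -0.071 without these arrays, so its direction rests on them too. The 17 macrophage identity genes had -0.05, from Fcgr1 at -0.59 to Cx3cr1 at 0.34. Without LincTnfaip3siRNA arrays 2 and 3 Fcgr1 was at -0.15 and Cx3cr1 at -0.24. Ribosomal protein genes had -0.21 and 13 housekeeping genes -0.05, but 0.07 and 0.12 with the slide as a block. What changed their direction was not tested. Rpl4 (-0.64, slide block 0.10) and Gapdh (-0.38, slide block 0.13) were the lowest of these lists, while Rps18 (0.12) was the highest of the ribosomal genes, and 7 other Gapdh probes gave -0.03 to 0.20. Markers of other cell types, of which 14 were measured, had a median of -0.24, from Cd8a at -1.27 to Mpo at 0.92. Their median level over the control mean ran from -0.25 to 0.29 in CtrlsiRNA, 0.33 to 0.58 with LPS, 0.16 to 0.72 with the lincRNA siRNA and 0.37 to 0.82 with both, and their part in the interferon result was not tested.

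The single genes with the lowest unadjusted p were dim ones on the low side and mostly well measured on the high side. The 8 lowest-p symbols below 0 were Hook1, Otor, Mb21d2, Wnt10a, 2510003B16Rik, Katnal2, Epgn and Rasgef1a, with interactions from -1.96 to -0.96 and adjusted p = 0.894 throughout. All 8 were well above background on at most 1 control-siRNA array. Hook1, a microtubule-binding adaptor gene, was at -6.23, -6.44 and -6.14 with control siRNA and at -3.54, -3.32 and -4.46 with the lincRNA siRNA, with LPS levels from -5.33 to -4.35. Its interaction of -1.96 became -0.37 with the control group held at its detection bound. Wnt10a, a Wnt ligand gene, rose with LPS by 3.74 with control siRNA and 2.28 with the lincRNA siRNA, from levels of -5.70, -5.61 and -5.04 and of -4.46, -4.99 and -5.35. Its LPS levels did not overlap: -1.58, -1.77 and -1.79 against -2.84, -2.42 and -2.69 (4.05% of all features lay lower without overlap with LPS).

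The 8 lowest-p symbols above 0 were Fam102a, D830050J10Rik, Mroh4, Tbc1d24, Supt7l, Umad1, Zfp410 and Zdhhc14, with interactions from 0.46 to 2.56, and 6 of them were above background on all 12 arrays. The 0.46 was that of Zfp410, and another probe of that gene gave 0.11. Fam102a, an oestrogen-induced gene, was at 4.87, 4.92 and 4.85 with control siRNA and at 4.79, 4.75 and 4.83 with the lincRNA siRNA. With LPS it was at 4.16, 4.21 and 4.03 against 4.64, 4.60 and 4.52. The lincRNA-siRNA arrays were thus the lower ones without LPS, by a mean of 0.09, and the higher ones with LPS, with no overlap in either state. Of 23822 features 2212 lay lower without overlap in the cells without LPS, and 7.4% lay higher without overlap with LPS. Fam102a fell by 0.75 with control siRNA (adjusted p = 0.00084), and its change with the lincRNA siRNA was -0.20 (adjusted p = 0.443). The interaction was 0.54 (95% confidence interval 0.27 to 0.81, unadjusted p = 0.00118, adjusted p = 0.894), and 0.57 with the slide as a block. Unlike the interferon genes, Fam102a had no split between LincTnfaip3siRNA arrays. Tbc1d24, a Rab GTPase-activating domain gene, was at -1.16, -1.17 and -1.21 with control siRNA, -1.97, -1.80 and -1.88 with LPS, -1.52, -1.49 and -1.71 with the lincRNA siRNA and -1.75, -1.80 and -1.52 with both, an interaction of 0.58.

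Among the 3535 lincRNA regions, positions on mm9, 64.2% were below 0 with a median of -0.17, beside 54.9% and -0.04 over all features. When slides were blocked 1898 were below 0 and the median was -0.03, beside 38.8% and 0.08 over all features. The 56 LPS-induced regions had a median of -0.61, with 46 below 0, and stood at 0.09, 0.76 and 0.80 on LincTnfaip3siRNA arrays 1, 2 and 3; without arrays 2 and 3 their median was -0.19. The region with the lowest p below 0 lies at chrX:100688896-100701764 (forward strand) and the one with the largest value above 0 among the 3 lowest p at chr9:82991830-82999937 (forward strand). The probes of both are printed because no gene name identifies them, and they lie at chrX:100701447-100701506 and chr9:82999629-82999688.
X probe: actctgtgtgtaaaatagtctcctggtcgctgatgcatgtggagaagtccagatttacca
9 probe: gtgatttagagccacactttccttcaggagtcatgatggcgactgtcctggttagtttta
The X region was at -4.49, -4.72 and -4.10 with control siRNA, -3.83, -3.36 and -3.66 with LPS, -3.67, -3.71 and -3.57 with the lincRNA siRNA and -4.08, -4.19 and -3.97 with both. Its interaction was -1.24 (95% confidence interval -1.78 to -0.71, adjusted p = 0.894), but it was well above background on 1 control-siRNA array. The chromosome 9 region was at -3.34, -5.01 and -3.98, at -4.75, -5.22 and -3.97, at -7.19, -5.41 and -7.01 and at -4.53, -3.19 and -5.01 in the same order. It was above background on no array of the lincRNA siRNA alone, and its interaction of 2.83 was 1.39 with that group held at its detection bound. The other 4 regions with the lowest p had interactions of -1.94, -0.95, 0.81 and 0.72.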

How the data were processed

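RNA of the 12 samples was labelled with Cy3 and measured on single-colour arrays. Spot intensity values were deposited as scanner output of Agilent Feature Extraction 10.7.1.1, with background subtraction and detrending inside each array and no scaling between arrays, per the file headers. The authors' table of values is, from its range, on a log2 scale with a common median of 4.75 in all columns, with a normalization that the sources used here do not give, and was used as an alternative. Probe positions are on mm9, per the file headers.

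Of 55681 probes, 33157 (59.5%) were kept because every array of some group had them well above background. Outlier spots (104 to 258 per array) were left out, which left 69 missing values, and no spot was saturated. Each array's 75th percentile of log2 processed intensity was subtracted from its log2 values. A gene's probe with the highest mean was used where it had several (6174 features). Accessions named 26582 probes, symbols 2597 and synonyms 492 through the gene table of GRCm38.p6, used for names only. The 75th percentile of signal was 314 to 481, and 3 arrays per group limit the precision.

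One limma 3.58.1 model (R 4.3.3) with 4 group means was fitted to all arrays and features, with 8 residual degrees of freedom and Benjamini-Hochberg adjustment over 23822 features. It was tested on simulated data. Named genes are the 8 symbols with the lowest unadjusted interaction p in each direction, the 10 highest and 6 lowest by LPS effect averaged over both siRNAs with an adjusted p under 0.05, the ends of each of 20 lists, 12 genes of the LPS response and the 3 lincRNA regions with the lowest p in each direction. The members and lists were chosen with earlier results of these data known, and lists were described, not tested. Deviations of same-numbered arrays correlated by -0.07 to 0.47 for number 1, -0.30 to 0.29 for number 2 and -0.25 to 0.32 for number 3; since not every pair was above 0.1, numbers were not treated as pairs. The alternatives were another background correction (normexp, offset 50), quantile and median scaling, the authors' own values, other filters and probe rules, the slide as a block, array weights, the replicate number as a block and each array left out. Another 2, floored dim groups and leaving out LincTnfaip3siRNA arrays 2 and 3 together, were added after seeing the data. Figures used matplotlib 3.10.9 and Python 3.11.15, and files were read with version 1.17.8 of data.table. Some genes that the rule names are not reported here.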

Additional observations from a re-analysis of the deposited data

How the results depend on the processing

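The count of features passing the interaction test was 0 in the 12-array fit and under all alternatives but 2. It was 3 without LincTnfaip3siRNA array 1. It was 352 without control-siRNA array 3, of which 351 were below 0, 156 were above background on neither remaining control-siRNA array and 0 belonged to the interferon lists; these arrays then come from slide 1 only, so slide and group cannot be told apart. Leaving out 1 array each gave 0 to 352 calls. The count at an unadjusted p under 0.05 (881) was 586 with normexp, 1397 with no filter, 340 with the slide as a block, 451 on slide 2 only, 4258 with array weights and 399 to 3385 with 1 array left out.

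The LPS-induced median (-0.48) was -0.20 with normexp, -0.29 with the slide as a block and on slide 2 only, -0.66 to -0.39 with 1 array left out and -0.027 without LincTnfaip3siRNA arrays 2 and 3 together. Without those arrays the repressed median (0.38) was -0.20, the antiviral median (-0.86) 0.32 and the GTPase median (-0.91) -0.23. With 1 array left out the antiviral median ran from -1.43 to -0.61 and the GTPase median from -1.50 to -0.69. Over the 55 genes of both lists the median lay between -1.11 and -0.68 under the other alternatives that keep all 12 arrays or slide 2.

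The replicate block left 0 calls and the medians of the antiviral list at -0.86 and of the LPS-induced features at -0.48, and it changed no call of the interaction, although 1157 features then had an unadjusted p under 0.05 and 1517 in place of 1212 passed for LPS with control siRNA. Among 87 named features, 94 of 2141 values under alternatives had another sign than the 12-array fit, and 48 features had none. Medians of the 20 lists and of the LPS-induced and LPS-repressed features changed sign in 72 of 550 cases. The cause of these changes was not tested. Dim probes on control-siRNA arrays 1 and 2 limit the values below background, and 3 arrays per group limit all of them.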
